A study of Arabidopsis thaliana with 12 samples.

Results

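The 10 small heat shock protein genes of Arabidopsis thaliana described here were chosen by locus from the 33560 annotated loci of the count table, and all 10 were found in it with 1 transcript each. They cover 5 cytosolic class I genes (HSP17.4, AT1G53540, HSP18.2, AT2G29500 and AT1G07400), the cytosolic class II gene HSP17.6A, and genes for peroxisomal (AT5G37670), endoplasmic reticulum (ATHSP22.0), plastid (HSP21) and mitochondrial (HSP23.6-MITO) proteins. RNA of whole Columbia 0 plantlets, 14 days old at the start of treatment, was sequenced after cold at 0, 4 or 10 °C, with control plantlets kept at 22 °C. No group carried a transgene or mutant allele, all plantlets had been raised at 22 °C on sucrose-containing agar in long days, and seeds of all groups had been chilled at 4 °C before germination. Each group held 3 biological replicates, each a pool of 10 plantlets from a plate. The label of each sample gives 24 h of cold, whereas the series' design text ties 24, 48 and 72 h in turn to 0, 4 and 10 °C, so if the latter holds, temperature and duration cannot be told apart; the hour of harvest of the controls is not stated.

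Small heat shock proteins carry an alpha-crystallin domain and assemble into oligomers that hold unfolding proteins in a soluble state without using ATP. HSP70 and HSP101 machines then refold the held proteins. In plants the genes are known above all from heat, where heat shock factors bind inverted GAA repeats (heat shock elements) in their promoters, and they are also switched on late in seed development. Seedlings that have not been heated usually hold little of their transcripts.

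Stretches of 4 promoters are shown because they hold heat shock elements: HSP17.4 and AT1G53540 share elements of 3 units and, as described further on, a like response, while HSP17.6A rose most against 22 °C and AT5G37670 fell at 4 and 10 °C. The letters are the stretch just before the annotated gene start in the RefSeq annotation of TAIR10.1, read 5′ to 3′ on the gene's strand, and end at the base before that start. Capitals mark GAA and TTC repeats spaced as in a heat shock element.
HSP17.4, chr3:16984868-16984967, minus strand: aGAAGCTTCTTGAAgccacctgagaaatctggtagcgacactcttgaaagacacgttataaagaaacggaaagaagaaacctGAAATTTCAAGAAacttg
AT1G53540, chr1:19980199-19980298, plus strand: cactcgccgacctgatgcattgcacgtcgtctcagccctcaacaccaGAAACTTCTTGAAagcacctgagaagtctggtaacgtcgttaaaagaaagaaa
HSP17.6A, chr5:3884839-3884938, minus strand: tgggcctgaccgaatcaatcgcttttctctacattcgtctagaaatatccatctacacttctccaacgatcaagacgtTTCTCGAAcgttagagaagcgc
AT5G37670, chr5:14968598-14968757, plus strand: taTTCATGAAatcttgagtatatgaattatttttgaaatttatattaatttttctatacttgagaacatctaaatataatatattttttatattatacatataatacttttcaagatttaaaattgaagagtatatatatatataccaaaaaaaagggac
The HSP17.4 stretch holds a pair of elements of 3 units, and the AT1G53540 stretch holds a single one. The HSP17.6A and AT5G37670 stretches each hold an element of 2 units.

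Levels are given as counts per 1000000 (CPM, scaled by edgeR's TMM factors), where 1 count was worth between 0.0248 and 0.0426 CPM in these libraries of 32870040 to 41683299 estimated counts. Log2 fold changes are given with their standard error (SE). Genes were called at an adjusted p under 0.05 in edgeR's quasi-likelihood test with Benjamini-Hochberg adjustment over the 21293 genes tested. The 10 members together summed to 96.5 ± 6.65 CPM at 0 °C and 26.1 ± 0.278 CPM at 4 °C, and the sum was 11.7 ± 0.631 CPM at 10 °C and 7.60 ± 0.446 CPM in the controls (SD, n = 3 in each group). In bulk RNA, fewer cells of a type and less RNA per cell cannot be told apart.

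**Figure D1:**
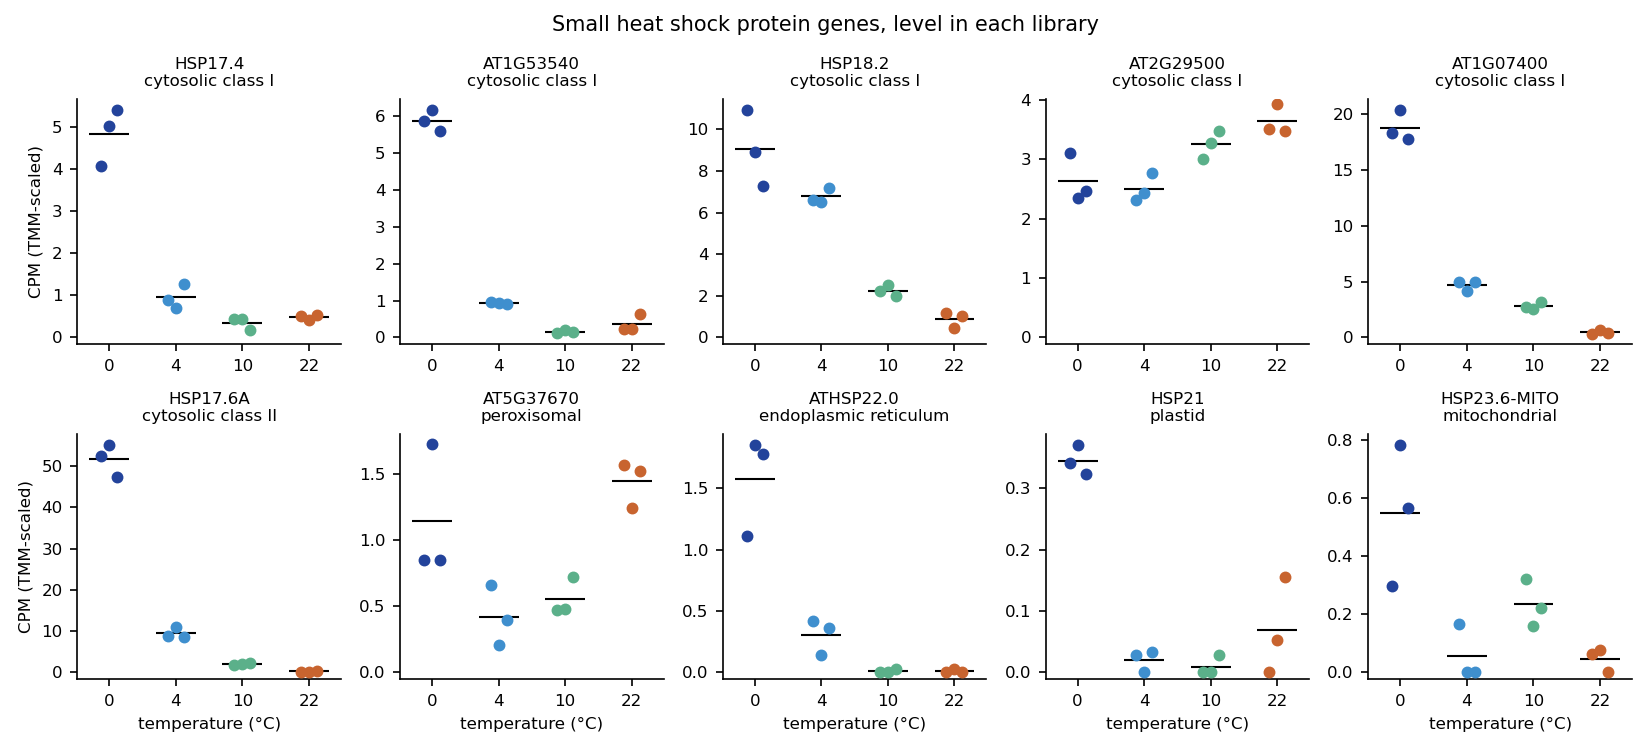
Level of each of the 10 genes in each of the 12 libraries, by temperature, where each point is a library and each line a group mean. Every gene has a panel with its own linear axis of CPM, so heights cannot be compared between panels. HSP17.6A spans the widest range, from 0.130 CPM in a 22 °C library to 55.1 CPM in a 0 °C library. AT2G29500 stays between 2.32 and 3.94 CPM.

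At 0 °C against 22 °C, 7 of the 9 members tested were higher and 1 was lower, where 35.5% of all genes tested were called higher and 38.8% lower. At 4 °C, 6 were higher and 2 lower, against 36.3% and 37.6% of all genes. At 10 °C, 3 were higher and 2 lower, against 32.4% and 32.3% of all genes, so the share of higher members there is near that of all genes. HSP21 did not pass the filter on low counts, ATHSP22.0 passed it through libraries of the 0 and 4 °C groups alone, and HSP23.6-MITO through libraries of the 0 and 10 °C groups alone. The counts of higher members thus include genes kept because they were high in the cold, and no median over the members is given. AT5G37670 and AT2G29500 did not follow the rest, and their values stand further on.

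The class II gene HSP17.6A (AT5G12030, chr5:3883957-3884838), a cytosolic chaperone, had the largest fitted fold change against 22 °C among the members tested at each cold temperature. It stood at 52.5, 55.1 and 47.5 CPM at 0 °C, at 8.87, 10.96 and 8.47 at 4 °C, at 1.71, 2.09 and 2.32 at 10 °C, and at 0.157, 0.130 and 0.342 at 22 °C. The groups are ordered by temperature without any overlap between neighbouring groups. The log2 fold change against 22 °C was 7.95 ± 0.21 (SE) at 0 °C (247-fold, adjusted p = 3.07e-12), 5.49 ± 0.23 at 4 °C (45.1-fold, adjusted p = 2.76e-10) and 3.29 ± 0.27 at 10 °C (9.75-fold, adjusted p = 3.55e-07), in edgeR's test. Each step between cold temperatures also passed it, with 2.46 ± 0.13 for 0 against 4 °C and 2.21 ± 0.15 for 4 against 10 °C. The control level rests on 21 counts over 3 libraries, which limits the precision of these folds. HSP17.6A made up 53.6% of the summed CPM of the members at 0 °C and 36.1% at 4 °C, but 17.44% at 10 °C and 2.71% in the controls.

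HSP17.6II (AT5G12020), which is not a member, is the other cytosolic class II gene and lies 845 bases from HSP17.6A on the same strand, with no coding gene between. Their coding sequences are 86.1% identical, and the estimated counts divide reads between such similar genes by a model. HSP17.6II had a log2 fold change of 6.89 ± 0.22 at 0 °C (mean 17.7 CPM against 0.146 at 22 °C), 5.67 ± 0.23 at 4 °C and 3.80 ± 0.26 at 10 °C. Both class II genes therefore lay in the same order of temperatures.

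The class I gene AT1G07400 (chr1:2274926-2275783) held the second highest level at 0 °C. It stood at 18.3, 20.3 and 17.7 CPM at 0 °C, at 4.94, 4.16 and 4.99 at 4 °C, at 2.68, 2.54 and 3.18 at 10 °C, and at 0.345, 0.622 and 0.374 at 22 °C. No neighbouring groups overlap. Log2 fold changes against 22 °C were 5.35 ± 0.18 at 0 °C (adjusted p = 3.53e-11), 3.36 ± 0.19 at 4 °C (4.86e-09) and 2.61 ± 0.19 at 10 °C (1.06e-07, edgeR). The difference between 4 and 10 °C was smaller, at 0.75 ± 0.15 (adjusted p = 0.000766), and was 0.46 with total counts alone (0.0159). AT1G59860, a class I gene 88.1% identical to it over the coding sequence, stood at a mean of 0.870 CPM at 0 °C and 0.386 at 22 °C. The receptor-like protein gene RLP1 (AT1G07390) ends 24 bases before AT1G07400 on the same strand, and it fell by 1.75 ± 0.19 on the log2 scale at 0 °C (3.40 to 1.01 CPM), opposite in direction to AT1G07400.

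The class I gene HSP18.2 (AT5G59720, chr5:24062323-24063300) differed from AT1G07400 in being nearly as high at 4 °C as at 0 °C. It stood at 10.9, 8.93 and 7.26 CPM at 0 °C, at 6.62, 6.51 and 7.20 at 4 °C, at 2.25, 2.51 and 1.98 at 10 °C, and at 1.17, 0.443 and 1.04 at 22 °C. The lowest 0 °C library lies just above the highest 4 °C library. The log2 fold change against 22 °C was 3.39 ± 0.26 at 0 °C, 2.97 ± 0.26 at 4 °C and 1.38 ± 0.27 at 10 °C, with adjusted p = 1.33e-07, 4.45e-07 and 0.000692 (edgeR). Between 0 and 4 °C it was 0.41 ± 0.22 and was not called (adjusted p = 0.128). That difference was called without the library of replicate 2 at 22 °C (adjusted p = 0.0309) and in a fit of the 0 and 4 °C groups alone (0.0485), at nearly the same size.

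HSP17.4 (AT3G46230, chr3:16984118-16984867) and AT1G53540 (chr1:19980299-19981199), whose coding sequences are 85.0% identical, are the class I genes whose promoters hold elements of 3 units. HSP17.4 stood at 4.09, 5.02 and 5.41 CPM at 0 °C, at 0.884, 0.694 and 1.28 at 4 °C, at 0.446, 0.449 and 0.166 at 10 °C, and at 0.501, 0.415 and 0.529 at 22 °C. AT1G53540 stood at 5.88, 6.17 and 5.61 CPM at 0 °C, at 0.967, 0.936 and 0.916 at 4 °C, at 0.124, 0.211 and 0.138 at 10 °C, and at 0.219, 0.233 and 0.623 at 22 °C. For both genes the 0 °C libraries stand far above all others, and the 4 °C libraries lie between these and the controls. The 10 °C libraries of HSP17.4 overlap the controls, and those of AT1G53540 lie below them.

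HSP17.4 was higher at 0 °C by 3.32 ± 0.31 (log2, adjusted p = 8.85e-07) and at 4 °C by 0.98 ± 0.33 (adjusted p = 0.0168), and its log2 difference at 10 °C was -0.43 ± 0.36 (adjusted p = 0.314, edgeR). The call at 4 °C was lost without replicate 3 of the 4 °C group (adjusted p = 0.0797) or replicate 2 of the controls (0.0587), and with assembled transcripts kept in the table (0.0569). AT1G53540 was higher by 4.04 ± 0.31 at 0 °C (adjusted p = 1.20e-07) and by 1.40 ± 0.33 at 4 °C (0.00195), and lower at 10 °C, with a log2 fold change of -1.15 ± 0.40 (0.0242, edgeR). The call at 10 °C rests on few counts, 18 against 36 over the groups. It was lost without control replicate 3 (log2 -0.52, adjusted p = 0.357), without replicate 1 of the 10 °C group (0.0781) and without its replicate 3 (0.0647). Between 0 and 4 °C the log2 difference was 2.34 ± 0.29 for HSP17.4 and 2.64 ± 0.28 for AT1G53540.

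The class I gene AT2G29500 (chr2:12633065-12634120) went the other way, over a narrow range of levels. It stood at 3.11, 2.35 and 2.46 CPM at 0 °C, at 2.32, 2.43 and 2.78 at 4 °C, at 3.00, 3.28 and 3.48 at 10 °C, and at 3.51, 3.94 and 3.49 at 22 °C. All cold libraries lie below the lowest control, those at 10 °C only just. It was lower at 0 °C by a log2 value of -0.47 ± 0.14 (adjusted p = 0.00989) and at 4 °C by -0.54 ± 0.14 (0.00381), and its -0.17 ± 0.14 at 10 °C was not called (0.306, edgeR). Against 10 °C, the 4 °C group was lower by -0.37 ± 0.14 (adjusted p = 0.0354). That call was lost in DESeq2 (adjusted p = 0.0794), without a filter on low counts (0.0512), with assembled transcripts kept (0.0658), and without replicate 2 or 3 of the 10 °C group (0.0808 and 0.113) or replicate 1 or 2 of the 4 °C group (0.113 and 0.0912). The 0 against 10 °C difference of -0.30 ± 0.14 was not called (0.0749), but it was -0.43 and called without replicate 1 of the 0 °C group (0.0215), -0.51 by upper quartile scaling (0.00620) and -0.87 by total counts alone (0.000130). Total counts alone also gave -0.88 for 0 against 22 °C and -0.66 for 4 against 10 °C.

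The peroxisomal gene AT5G37670 (chr5:14968758-14969591) was lowest at the middle temperatures. It stood at 0.852, 1.73 and 0.848 CPM at 0 °C, at 0.663, 0.208 and 0.392 at 4 °C, at 0.471, 0.476 and 0.719 at 10 °C, and at 1.57, 1.24 and 1.53 at 22 °C. The 4 and 10 °C libraries all lie below the controls, whereas a 0 °C library exceeds them all. Its log2 fold change was -1.74 ± 0.39 at 4 °C (adjusted p = 0.00155), -1.38 ± 0.38 at 10 °C (0.00655) and, not called, -0.34 ± 0.37 at 0 °C (0.424, edgeR). The 0 °C group was above the 4 °C group by 1.40 ± 0.41 (adjusted p = 0.0102) and above the 10 °C group by 1.04 ± 0.39 (0.0303). Both rest on the library of replicate 2 at 0 °C, without which they were 0.98 (0.0620) and 0.62 (0.187). The 0 against 10 °C call was also lost without replicate 1 or 2 of the 10 °C group (0.0857 and 0.0825), with scaling by total counts alone (log2 0.47, 0.271), with upper quartile factors (0.0722) and with assembled transcripts kept (0.0930).

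ATHSP22.0 (AT4G10250, chr4:6370338-6371372), made for the endoplasmic reticulum, was nearly absent from the counts at 10 and 22 °C. It stood at 1.11, 1.85 and 1.78 CPM at 0 °C and at 0.414, 0.139 and 0.360 at 4 °C. Both other groups had 1 count each over their 3 libraries, so no fold is given between them. Against 22 °C, the edgeR test called it at 0 °C (adjusted p = 2.59e-06) and at 4 °C (0.000402). The ratio of summed counts, scaled by library size, was 163 at 0 °C (95% exact Poisson interval 28.6 to 6479, counting error only) and 32.2 at 4 °C (5.35 to 1314). This interval at 0 °C covers the fold of HSP17.6A, so the order of these genes is not resolved. Between 0 and 4 °C, where counts were 115 and 30, the log2 difference was 2.34 ± 0.46 (adjusted p = 0.000812).

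HSP21 (AT4G27670, chr4:13818825-13819971), the plastid member, stood at 0.341, 0.370 and 0.323 CPM at 0 °C and between 0 and 0.156 CPM in the 9 other libraries. All 3 libraries at 0 °C thus lie above every other library. Summed over a group, HSP21 had 25 counts at 0 °C, and 2, 1 and 7 counts in the 4, 10 and 22 °C groups. The scaled ratio of counts was 5.05 for 0 against 22 °C (2.12 to 13.8), 16.5 for 0 against 4 °C (4.11 to 143) and 39.4 for 0 against 10 °C (6.45 to 1618), all with 95% exact Poisson intervals that cover counting error only and leave out the spread between plates.

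HSP23.6-MITO (AT4G25200, chr4:12916926-12918110), the mitochondrial member, stood at 0.298, 0.782 and 0.565 CPM at 0 °C, at 0.166, 0 and 0 at 4 °C, at 0.322, 0.159 and 0.221 at 10 °C, and at 0.0627, 0.0778 and 0 at 22 °C. Here the 10 °C libraries lie above the controls while 2 of the 4 °C libraries had no count, an order unlike that of the other members. It was higher at 0 °C than at 22 °C by 3.40 ± 0.88 (log2, adjusted p = 0.00392) and than at 4 °C by 3.09 ± 0.86 (0.00835, edgeR), although with assembled transcripts kept the latter was not called (0.0720), and without replicate 1 at 4 °C, where no count is left in that group and fitted values depend on the prior count, its value was 7.13. The 10 °C difference from the controls, 2.19 ± 0.93, was not called (0.0565) but was called without any 1 of the 4 °C libraries (0.0241, 0.0481 and 0.0457 without replicate 1, 2 and 3) and with total counts alone (0.0430). At 4 °C the difference from the controls was 0.32 ± 1.16 (0.818), and it turned to -3.73 (0.0946) without replicate 1 and to -0.20 without control replicate 3. The difference between 4 and 10 °C was not called (log2 -1.87 ± 0.91, 0.0941), but without that 4 °C library it was called (log2 -5.92, 0.00633). With 6 counts at 4 °C and 5 at 22 °C, a difference between those groups was not detectable at this depth.

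**Figure D2:**
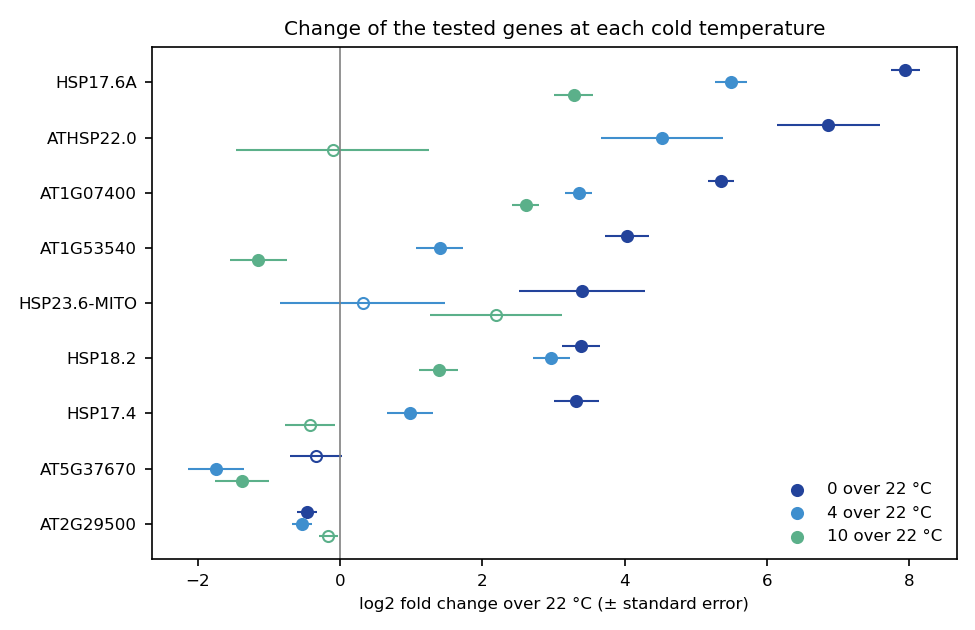
Log2 fold change of the tested members at 0, 4 and 10 °C against 22 °C, with the standard error of edgeR's fit as bars; filled points passed an adjusted p of 0.05 and open points did not. HSP17.6A runs from 7.95 at 0 °C to 3.29 at 10 °C, whereas AT2G29500 stays between -0.54 and -0.17.

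Between cold temperatures the order was the same for most members. At 0 against 10 °C, 7 of 9 were higher and 0 lower, where 33.9% and 36.6% of all genes tested were; those not called were AT2G29500 and HSP23.6-MITO (log2 1.21 ± 0.69, adjusted p = 0.137). In a fit of those groups alone HSP23.6-MITO was called (adjusted p = 0.0388, edgeR). At 0 against 4 °C, 7 were higher and 0 lower, against 29.2% and 28.8% of all genes, and HSP18.2 and AT2G29500 were not called. Both counts of 0 in edgeR's test were also 0 at an unadjusted p under 0.05 and 0 in DESeq2. The count for 0 against 10 °C became 1 (AT2G29500) without replicate 1 of the 0 °C group and under both other scalings, by total counts and by upper quartile. At 4 against 10 °C, 6 were higher and AT2G29500 was lower, against 29.7% and 30.3% of all genes. The log2 differences called in the comparison of 0 and 4 °C lay between 1.40 (AT5G37670) and 3.09 (HSP23.6-MITO). These comparisons share groups with those against 22 °C and are not independent of them.

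Per kilobase of spliced transcript, HSP17.6A was the most abundant member at 0 °C with 58.6 CPM per kilobase, followed by AT1G07400 with 21.9, HSP18.2 with 9.25, HSP17.4 with 6.68 and AT1G53540 with 6.53. HSP17.4 and AT1G53540 do not differ beyond their spread (SD 0.939 and 0.310, n = 3). AT2G29500 followed with 2.50, ATHSP22.0 with 1.53, AT5G37670 with 1.37, HSP23.6-MITO with 0.523 and HSP21 with 0.351. At 22 °C the order was different, with AT2G29500 first at 3.45, AT5G37670 at 1.73, HSP18.2 at 0.904 and HSP17.6A at 0.238 CPM per kilobase. The gene that led at 0 °C was thus below AT2G29500, AT5G37670 and the other class I genes in the controls, and the gene that led in the controls fell at 0 and 4 °C.

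In gene structure the members are alike, since 8 have no annotated intron, while HSP21 and HSP23.6-MITO have 1. Over the 250 bases before each gene start, 5 of 10 members hold an element of 2 units (GAANNTTC or TTCNNGAA), against 16.1% of the 27443 promoters of protein-coding genes. These are HSP17.4, AT1G53540, HSP17.6A, AT5G37670 and HSP21. An element of 3 units (GAANNTTCNNGAA or TTCNNGAANNTTC), which overlaps 2 of the former kind, is held by HSP17.4 and AT1G53540 alone among the members, against 0.386% of all promoters. All these sequences read the same on both strands or were searched on both.

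The CRT/DRE core CCGAC, known as the site of CBF cold-response factors, was present in the window of 2 members (AT1G53540 and HSP18.2), against 11.97% of all promoters. The ABRE core ACGTG, known from abscisic acid response, was present in 5 members (HSP17.4, AT1G53540, AT2G29500, ATHSP22.0 and HSP23.6-MITO), against 22.9%. The window of AT1G07400, which rose 40.9-fold at 0 °C, holds none of these letters, and AT5G37670, whose window holds an element of 2 units, fell at 4 and 10 °C. For 4 members (AT1G53540, HSP18.2, AT1G07400 and HSP17.6A) the window runs into the neighbouring gene. A match is a description of letters and was not tested for binding.

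**Figure D3:**
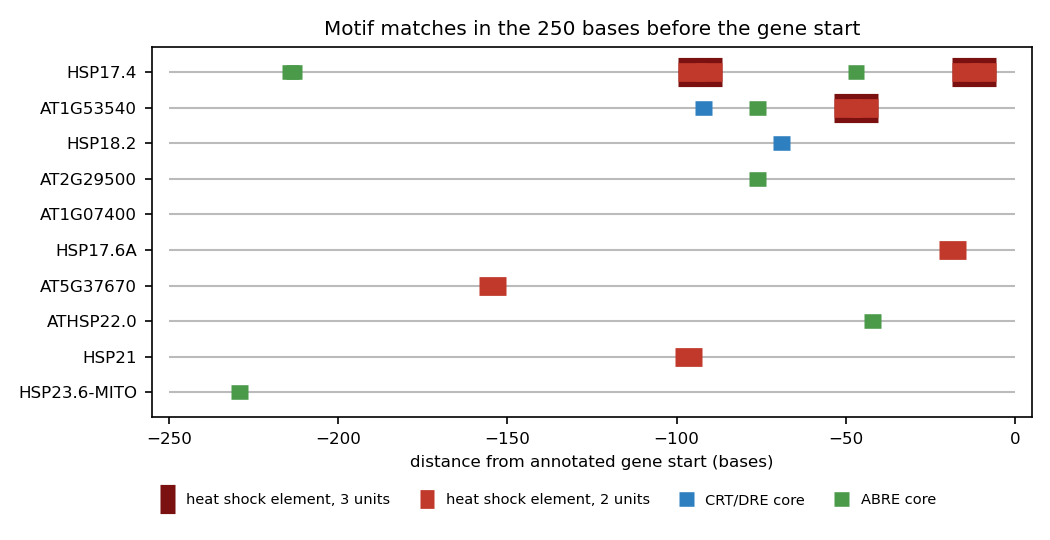
Positions of heat shock elements of 2 and 3 units, CRT/DRE cores and ABRE cores in the 250 bases before the annotated start of each member; the horizontal axis is the distance from the start in bases. HSP17.4 holds elements of 3 units starting at -99 and -18 and AT1G53540 holds one starting at -53, while AT1G07400 holds no match.

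The rest of the pathway was described with lists of related genes. Of 8 further small heat shock and alpha-crystallin domain genes, 6 were higher and 2 lower at 0 °C, 5 and 2 at 4 °C, and 3 and 2 at 10 °C, all against 22 °C. Over all genes, 35.5% were called higher and 38.8% lower at 0 °C, and 36.3% and 37.6% at 4 °C. The shares of all genes at 10 °C, 32.4% and 32.3%, are near those of this list there. With scaling by total counts alone the split at 0 °C was 4 and 2. Their median log2 fold change was 1.09 at 0 °C and 0.22 at 10 °C, where the medians of all genes tested were -0.07 and -0.01. The lowest at 0 °C was AT1G54050 at -1.23 ± 0.15.

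Heat shock factors are the transcription factors that bind heat shock elements. Of 20 tested among 21 listed, 14 were higher and 5 lower at 0 °C, 10 and 6 at 4 °C, and 6 and 6 at 10 °C, with medians of 1.35, 0.36 and -0.10. Of all genes, 35.5% were called higher and 38.8% lower at 0 °C, and 36.3% and 37.6% at 4 °C. The all-gene share called lower at 0 °C is above that of the factors, and the 6 factors lower at 4 °C are to be read against 37.6%. At 10 °C the all-gene shares, 32.4% and 32.3%, are near those of the factors. Scaled by total counts alone, 11 were higher and 5 lower at 0 °C, and the median at 10 °C turned to 0.05. HSFA6B, linked to abscisic acid response, was the highest at 0 °C with a log2 fold change of 7.16 ± 0.17 (134 CPM against 0.916), and was 3.33 ± 0.19 at 4 °C. HSFA2, which prolongs the heat response, was higher by 5.76 ± 0.27 at 0 °C (22.9 against 0.411 CPM), 1.83 ± 0.31 at 4 °C and 1.20 ± 0.32 at 10 °C. HSFA3 was higher at 0 °C by 2.63 ± 0.20 and lower at 4 and 10 °C, at -1.21 ± 0.23 and -0.98 ± 0.22. The HSFA1 factors, which start the heat response, went in both directions at 0 °C. HSFA1A (HSF1 in the annotation) was at 0.47 ± 0.13 and HSFA1E at 2.90 ± 0.19 (19.9 against 2.62 CPM), and both were called higher, whereas HSFA1B (HSF3) at -0.56 ± 0.07 and HSFA1D at -2.25 ± 0.39 were called lower. HSFA1E was also higher at 4 °C (2.60 ± 0.19) and 10 °C (1.61 ± 0.19).

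Of 16 larger chaperones and co-chaperones, 15 were higher and 0 lower at 0 °C, 12 and 3 at 4 °C, and 9 and 6 at 10 °C. Of all genes, 35.5% were called higher at 0 °C, 36.3% at 4 °C and 32.4% at 10 °C. The shares called lower were 38.8%, 37.6% and 32.3% in that order, and the 6 lower at 10 °C are to be read against the last. The 0 lower at 0 °C in edgeR's test was also 0 at an unadjusted p under 0.05, but with total counts alone 11 were higher and 1 lower. HSP70 (AT3G12580, also called HSP70-4) rose by 6.19 ± 0.05 at 0 °C, 4.85 ± 0.05 at 4 °C and 1.11 ± 0.05 at 10 °C, from 17.7 CPM in the controls to 1296 at 0 °C. HSP101, the disaggregase that works on proteins held by small heat shock proteins, rose by 4.29 ± 0.05, 2.39 ± 0.05 and 0.29 ± 0.05. The plastid CLPB3 had the lowest change of the list at 0 °C, at 0.23 ± 0.07. Group means of HSP70 and HSP101 lay in the order seen in those of HSP17.6A, AT1G07400 and HSP18.2.

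**Figure D4:**
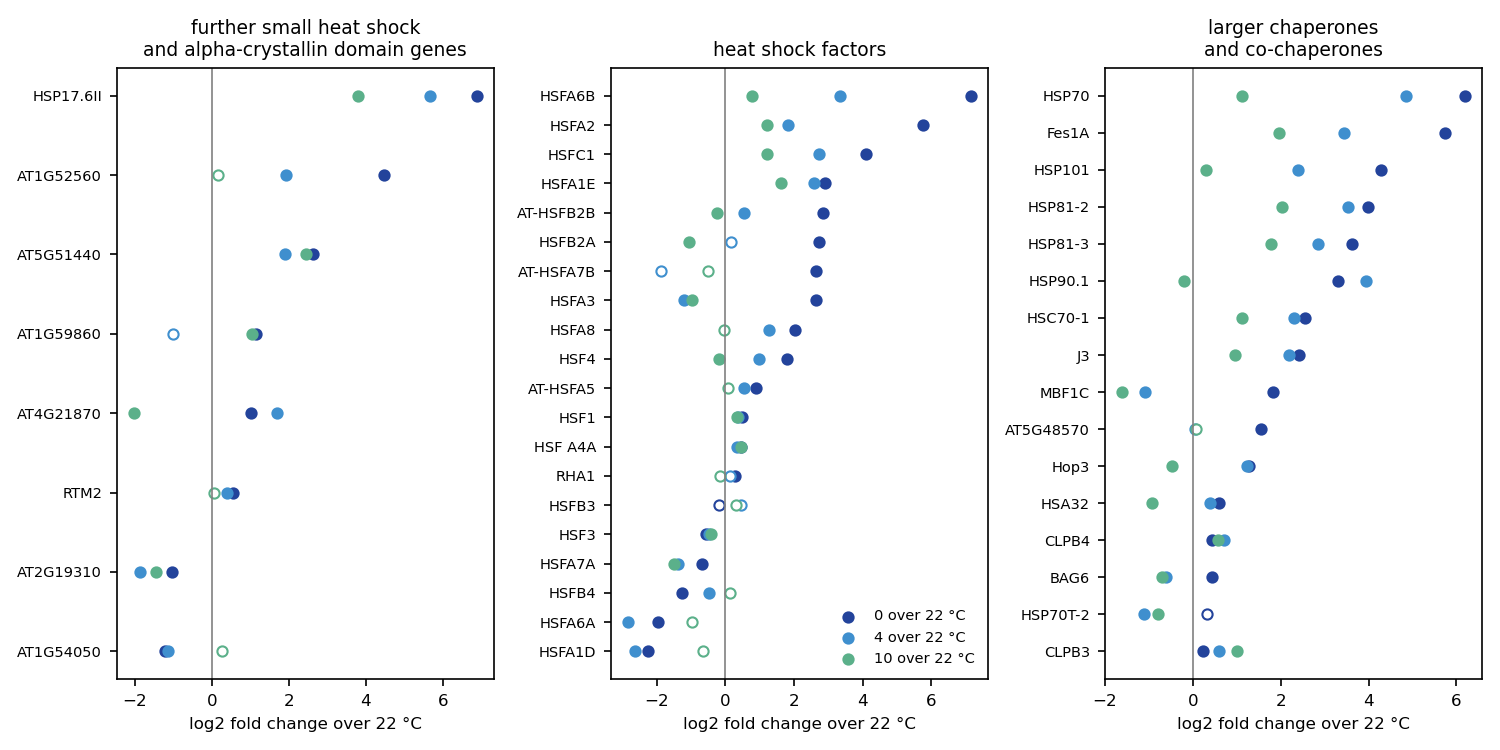
Log2 fold change against 22 °C of every tested gene in the lists of related genes, by temperature. The panels show further small heat shock and alpha-crystallin domain genes, heat shock factors, and larger chaperones and co-chaperones. Each point is a gene at a cold temperature, filled where the adjusted p in edgeR's test was under 0.05 and open where it was not. At 0 °C the highest point among the further small heat shock genes is HSP17.6II at 6.89. Among the factors it is HSFA6B at 7.16, and among the larger chaperones HSP70 at 6.19.

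The genes whose profile over the 12 libraries was most like the mean profile of the tested members were AGP15, IP5PII, AT3G07090, AT1G02270 and PPa4, out of 14401 genes averaging 5 CPM or more. The measure was the root mean square difference of centred log2 CPM, which was 0.141 for AGP15 and 0.191 for PPa4. The members themselves lay farther from their own mean profile, from 0.551 for HSP17.4 to 1.69 for HSP17.6A. The 5 genes were picked for the smallest differences and the members were not, so this contrast follows from the choice. AGP15, a cell surface arabinogalactan protein, had group means of 1311, 369, 225 and 126 CPM in the order 0, 4, 10 and 22 °C. IP5PII, an inositol polyphosphate phosphatase, had 305, 110, 53.1 and 36.7 CPM in that order.

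The tissue label of whole plant was checked against markers. The 4 shoot markers summed to between 39093 and 42614 CPM at 0 °C, 30718 and 33194 at 4 °C, 26858 and 28138 at 10 °C, and 39033 and 41857 at 22 °C, with none at 0 in any group. At 0 °C against 22 °C, 0 of them were called higher and 2 lower, where 35.5% and 38.8% of all genes were. Their log2 fold changes ran from 0.07 ± 0.04 (RBCS1A, not called) to -2.04 ± 0.19 (RCA, 41.7 CPM at 0 °C and 172 at 22 °C). The 6 root markers, none at 0 in any group, summed to between 51.2 and 52.9 CPM at 0 °C, 65.2 and 67.9 at 4 °C, 93.3 and 94.0 at 10 °C, and 93.8 and 98.7 at 22 °C, and 5 of them were called lower at 0 °C, where 38.8% of all genes were. Log2 fold changes of the root markers at 0 °C ran from -0.14 ± 0.06 (CASP1, not called) to -2.14 ± 0.15 (EXPA18). Seed genes were included since seeds express small heat shock proteins. The 8 listed summed to between 2.43 and 2.77 CPM at 0 °C, 0.635 and 1.01 at 4 °C, 1.99 and 3.09 at 10 °C, and 0.342 and 0.627 at 22 °C, and the storage protein gene CRU2 had no count at 0, 4 and 10 °C. The cruciferin genes CRA1 and CRU3, the seed genes that were tested, were higher at 0 °C by 2.15 ± 0.31 and 4.55 ± 0.88. Seed genes were about as high at 10 °C as at 0 °C, whereas the summed level of the members was 11.7 and 96.5 CPM. The part of these markers in the results above was not tested.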

How the data were processed

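RNA of 12 whole-plant samples, 3 at each of 4 temperatures, was read as 250 bp pairs on an Illumina HiSeq instrument, per the labels' protocols. Per the submitters' processing notes, HISAT2 2.2.0, kallisto 0.42.4, edgeR and build TAIR10 were used; the role of each, and whether strand counted, are not given in the sources used here. Estimated counts by transcript were deposited by the authors, some of them fractional, as in 2 members. Of 56132 transcripts, 41623 belong to 33560 annotated loci; 14509 assembled ones (9.79% to 12.2% of a library) and 6 columns of other samples were not used. The members held 0.000687% to 0.00713% of a library.

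Counts were summed per locus, rounded, filtered (filterByExpr, 21293 genes) and tested in 1 fit of all samples with edgeR 4.0.16 (R 4.3.3; TMM factors 0.792 to 1.19; glmQLFit, glmQLFTest; common biological coefficient of variation 0.100). Standard errors were taken as the log2 fold change over the square root of F. The 6 comparisons were each adjusted by Benjamini-Hochberg. DESeq2 1.42.0, other scalings and filters, the 2 compared groups alone, assembled transcripts, a replicate block and left-out replicates were alternatives. The fit was tested on simulated data. Genome sequence, gene structures and names came from RefSeq TAIR10.1, matched by locus.

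The members, the lists of related genes and the markers were chosen with earlier results of these data known. Named genes were all members, the highest and lowest of each list at 0 °C, 7 chosen factors and chaperones, and the 5 most similar profiles; AT1G59860, HSFA1E, RLP1 and CRU2 were named after their values were seen. The p-values measure the spread between pooled plates.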

Additional observations from a re-analysis of the deposited data

How the results depend on the processing

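Of 1029 recomputed values of single members and comparisons, 986 kept their direction and side of the threshold, 23 lost and 11 gained a call, and 9 uncalled values changed sign. The cause was not tested. Scaling by total counts alone moved the all-gene median of log2 fold changes by -0.41, -0.14 and 0.15 at 0, 4 and 10 °C against 22 °C, and by -0.57, -0.29 and -0.28 for 0 against 10, 4 against 10 and 0 against 4 °C. Upper quartile factors shifted it by -0.23, -0.14, -0.02, -0.21, -0.12 and -0.09. The share of higher calls among all genes called at 0 against 22 °C was 47.8% as reported, 35.4% by upper quartile factors, 27.6% by total counts alone; at 10 against 22 °C it was 50.1% and 61.6% with total counts. With total counts it was 19.9%, 24.1% and 26.2% for 0 against 10, 4 against 10 and 0 against 4 °C, and with upper quartile factors 35.2% and 37.7% for the first pair of these. Members called higher stayed within 1.5 times the reported count under every scaling tried.

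With a mean of at least 5 CPM required, only 2 members were tested, HSP17.6A and AT1G07400. Both reach that mean through their high levels in the cold, so their higher calls follow from the filter and are no support. At 0 against 22 and 4 against 22 °C, 2 were higher and 0 lower, and 0 were lower at 10 against 22 °C. Both were higher at 0 against 10, 4 against 10 and 0 against 4 °C, with 0 lower at 4 against 10 °C. Of the 14474 genes tested under this filter, 4795 to 5915 were higher and 4963 to 6214 lower, depending on the comparison. Members lower at 0 against 10 °C numbered 1 with total counts alone and 1 with upper quartile factors. Members lower at 4 against 10 °C numbered 0 with DESeq2, without a filter on low counts and with assembled transcripts kept, and members lower at 10 against 22 °C numbered 1 when only those groups were fitted. Leaving out 1 replicate at a time gave 7 to 7 members higher at 0 against 22 °C, 5 to 6 at 4 against 22 °C, 3 to 4 at 10 against 22 °C, 6 to 7 at 0 against 10 °C, 6 to 6 at 4 against 10 °C and 6 to 8 at 0 against 4 °C. The lower counts were 1 to 1, 2 to 2, 1 to 2, 0 to 1, 0 to 1 and 0 to 0 in the same order. Over these fits and comparisons, 5823 to 7846 of the 21522 to 21573 genes tested were higher and 5595 to 8360 lower. At 10 against 22 °C, 6410 to 7056 of all genes were higher, so the share of higher members there is near that of all genes.

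Values that changed sign, all uncalled, were ATHSP22.0 at 10 against 22 °C (0.0049 with total counts; -1.79 to 1.68 when leaving out replicates, positive without replicate 1 or 2 at 10 °C or 2 at 22 °C), AT2G29500 at 0 against 4 °C (-0.20 with total counts, -0.021 with upper quartile factors, from -0.050 without replicate 1 at 0 °C to 0.15 when leaving out replicates), and HSP23.6-MITO at 4 against 22 °C (-3.73 without replicate 1 at 4 °C to 0.88, and -0.20 without replicate 3 at 22 °C).

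Same replicate numbers did not pair the samples: over 18 same-number pairs the correlation of deviations lay between -0.0415 and 0.0989, with 0 over 0.1, and 5 of 12 samples lay closest to their own number. With the replicate block, 0 members were lower at 4 against 10 °C (AT2G29500 adjusted p = 0.0588, edgeR), and AT5G37670 at 0 against 10 °C had an adjusted p of 0.0505; the block changed no other call. Members with few counts (HSP21, ATHSP22.0, HSP23.6-MITO) are limited by depth.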
